A study of Homo sapiens with 4 samples.

Results

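The genes followed here encode the cytoplasmic and nuclear machinery that destroys mRNA, other than the CCR4-NOT deadenylase itself. The 57 members were taken by symbol, as decapping factors, the LSM ring, the 5′-to-3′ exonucleases, poly(A) shortening and binding proteins, the GW182 proteins of the miRNA pathway, partners of CCR4-NOT, the RNA exosome with its nucleases and helicases, and nonsense-mediated decay factors. All 57 were among the 10978 genes tested, out of 27011 genes in the count table, and all 57 had an FPKM above 2 in every library. RNA-Seq was carried out on HEK293T cells, an established human embryonic kidney line, in 2 WT and 2 Helz-null libraries. Both cell types were plated on 15 cm dishes 24 h before harvest and received no treatment. The Helz-null line was made from HEK293T cells by Cas9 editing with a guide RNA against the helz gene, which left a deletion that shifts the reading frame. A single edited line was compared with the parental cells, so that the loss of HELZ and any other difference between the lines cannot be told apart.

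In the main route of mRNA decay, the poly(A) tail is shortened by PAN2-PAN3 and CCR4-NOT, the LSM1-7 ring and PATL1 bind the shortened end, the cap is removed by DCP2 with its activators, and XRN1 degrades the body from the 5′ end. The RNA exosome degrades RNA from the other end, as a catalytically inert barrel that is fitted with nucleases and served by helicases. Nonsense-mediated decay feeds mRNAs with premature stop codons into the same enzymes, and HELZ, a helicase of the superfamily of UPF1, has been studied as a factor that binds CCR4-NOT.

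Library totals ranged from 41745401 to 70464140 counts, and values per library are CPM, counts relative to library size, after TMM scaling, which corrects for differences in composition between libraries. Replicates differed by more than counting noise, with a chi-square per degree of freedom of 4.15 between the WT libraries and 3.01 between the Helz-null libraries, and the common biological coefficient of variation was 2.60%. HELZ, on the minus strand of chromosome 17 from 65066560 to 65242105 of GRCh37, had 99.8 and 103.9 CPM in WT cells and 36.98 and 37.88 CPM in Helz-null cells. The groups did not overlap, the Helz-null mean was 36.7% of the WT mean, and the log2FC of -1.44 ± 0.042 (SE) had an FDR of 2.13e-27. All 8 markers of HEK293T cells exceeded 1 CPM in every library, with sums from 1630 to 1699 CPM, most of it from VIM (964 to 1074 CPM). Single markers differed between the groups, with NEFM at 241 and 230.3 CPM in WT and 439 and 434 CPM in Helz-null cells, INA at 74.4 and 68.4 CPM and then 33.1 and 35.7 CPM, and LHX1 at 2.98 and 2.68 CPM and then 6.58 and 4.89 CPM, and their part in the results was not tested. Of the markers of other cell types, 7 of 9 were at or below 1 CPM in every library, with sums over the 9 from 15.1 to 17.5 CPM, of which COL1A1 contributed 14.3 to 16.0 CPM. In these bulk libraries, fewer cells that express a gene and less RNA per cell cannot be told apart.

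The decay genes changed by small amounts and in both directions. At an FDR below 0.005 in the quasi-likelihood test of edgeR, 6 members were up-regulated (PAN2, CNOT4, DIS3, SKIV2L, TTC37 and SMG5), 14 were down-regulated (EDC3, DCP1A, LSM3, XRN1, PABPC4, TOB2, EXOSC2, EXOSC6, EXOSC7, EXOSC8, EXOSC9, DIS3L, UPF3B and SMG1) and 37 did not pass. The members called were 35.1% of the 57, beside 29.4% of all tested genes, with 13.9% of all tested genes up-regulated and 15.5% down-regulated. Their median log2FC was -0.02, beside -0.001 for all tested genes, and the median absolute log2FC was 0.10, beside 0.11 for all tested genes. Fold changes stayed between log2FC -0.44 for EXOSC7 and 0.48 for DIS3. The WT and Helz-null ranges did not overlap for 43 of the 57 members (75.4%), beside 70.6% of all tested genes. Replicates lay close together, with a median absolute log2 difference over the members of 0.043 between the WT libraries and 0.035 between the Helz-null libraries, and the widest gaps, 0.11 and 0.15, were both those of SMG9. When the change had to exceed a fold of 1.2, only DIS3 passed upwards and only EXOSC7 and DIS3L downwards, where 1.98% and 2.9% of all tested genes passed. With an FDR below 0.05 as the threshold, 12 members were up-regulated and 15 down-regulated, beside 21.6% and 22.8% of all tested genes. When counts were scaled by library size alone, 11 members rose, 12 fell and the median log2FC moved to 0.01, while over all tested genes 2109 rose and 1318 fell.

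**Figure D1:**
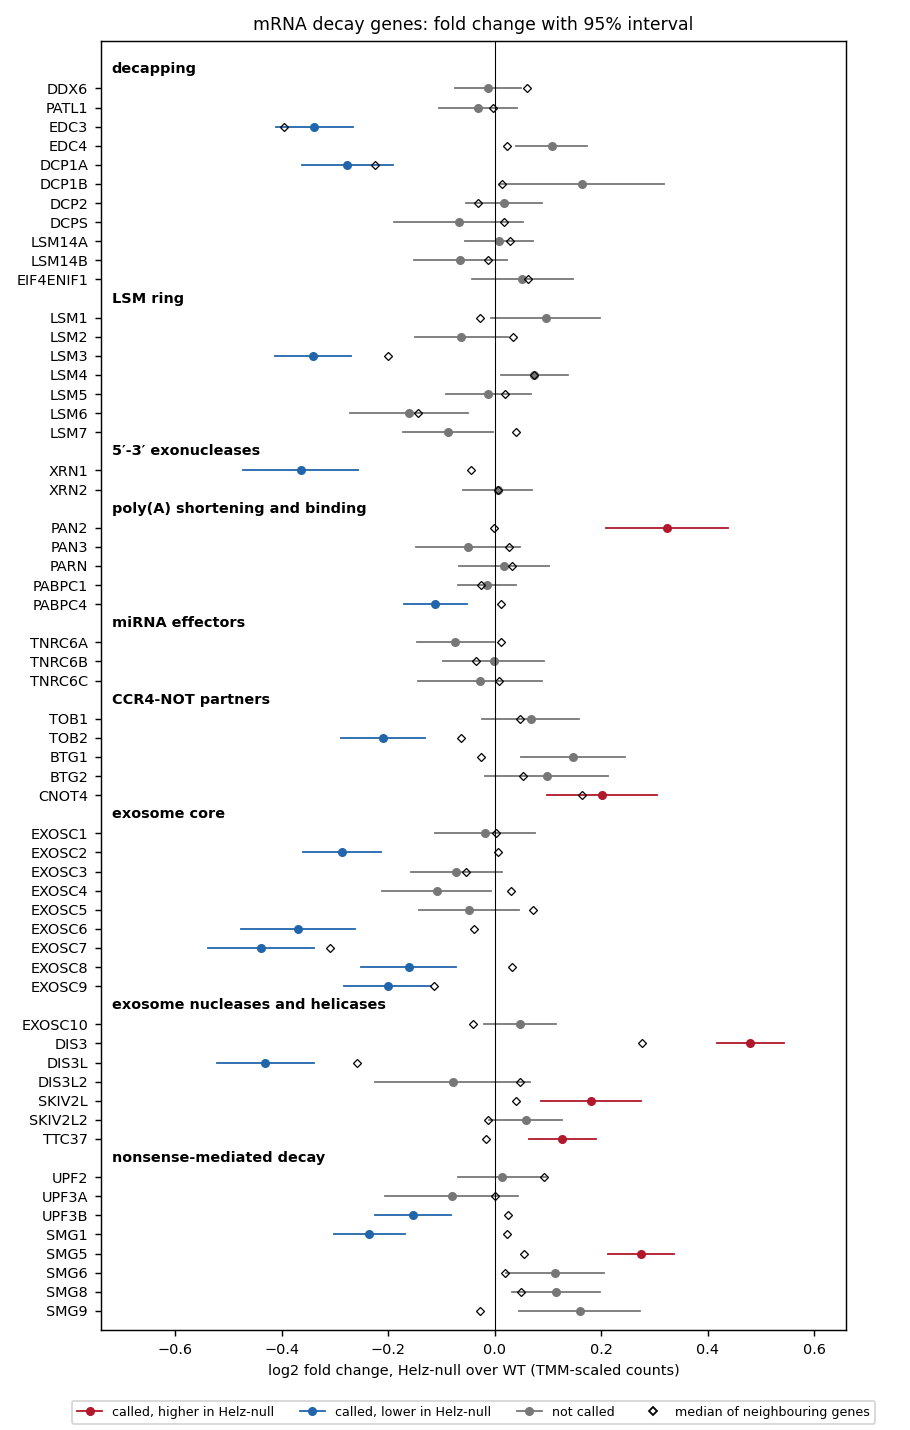
Log2 fold change (Helz-null over WT, TMM-scaled counts, x axis) of the 57 decay genes by sub-pathway, with 95% intervals from the fit over 4 libraries and open diamonds for the median log2FC of up to 40 neighbouring tested genes. The 6 up-regulated members reach 0.48 (DIS3), the 14 down-regulated members reach -0.44 (EXOSC7), and all 9 exosome core genes lie below 0.

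Members differed far more in level than in change. Levels between genes were compared as FPKM, which divides by gene width, and the means over the 4 libraries ran from 3.01 for TNRC6C to 401 for PABPC1, with a median over the members of 24.0, beside 12.9 for all tested genes. PABPC1, the main cytoplasmic poly(A)-binding protein, stood above all other members, followed by LSM3 at 158, LSM7 at 124 and LSM4 at 112 FPKM, all of them small ring subunits. At the lower end stood TNRC6C and TNRC6B at 3.04, XRN1 at 3.49, DIS3L2 at 3.70 and DCP1B at 3.86 FPKM. Of these 5, XRN1 had the lower Helz-null values described below, and the other four were not called.

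**Figure D2:**
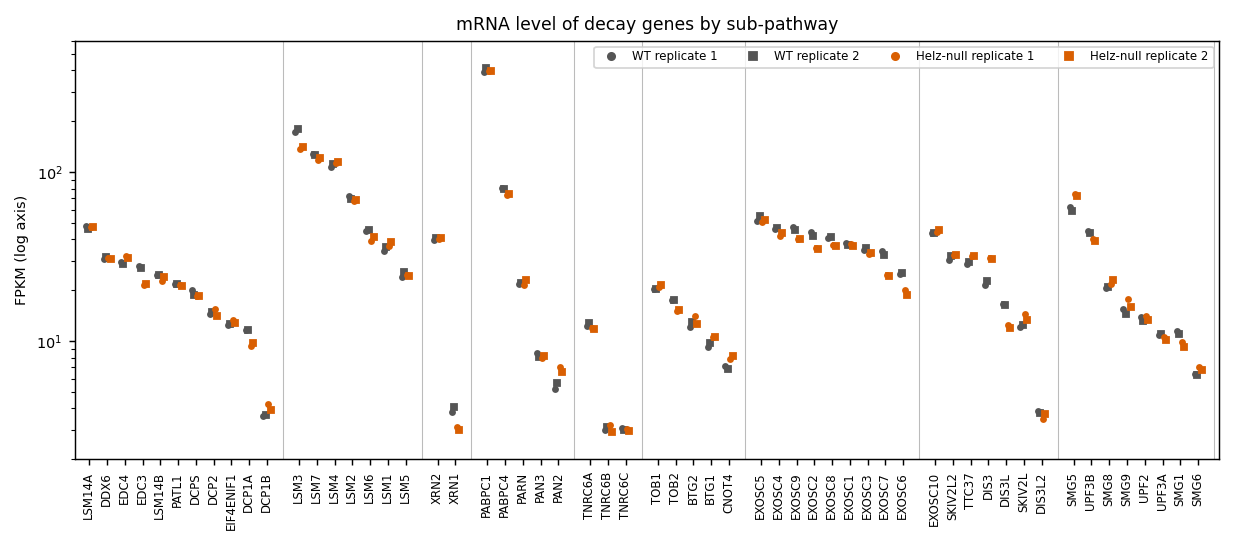
FPKM (log axis) of the 57 decay genes in each of the 4 libraries, grouped by sub-pathway and ordered by mean level within it. PABPC1 lies at about 401 FPKM and the lowest members near 3.01, while the WT and Helz-null symbols of a gene mostly touch.

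Among the 11 decapping genes, 2 activators fell (18.2%, beside 15.5% of all tested genes). The enzyme with the rest of its scaffold did not pass. Down-regulated were EDC3, which bridges DCP2 and DDX6, and DCP1A, the main partner of DCP2, whereas 9 of 11 were not called and the median log2FC of the group was -0.01. EDC3 had 113 and 110.4 CPM in WT cells and 87.7 and 89.1 CPM in Helz-null cells (log2FC -0.34 ± 0.036, FDR 2.49e-10). DCP1A had 70.2 and 70.9 CPM in WT cells and 57.2 and 59.1 CPM in Helz-null cells (log2FC -0.28 ± 0.042, FDR 8.23e-07). In neither gene did the groups overlap, and the Helz-null means were 79.1% and 82.4% of the WT means. Both genes lie in chromosome stretches where most neighbours were lower as well, and their values are taken up again with those neighbours.

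The catalytic subunit and the hub proteins of decapping gave narrow intervals around 0. DCP2, which cleaves the cap, had 147 and 151 CPM in WT cells and 158 and 144 CPM in Helz-null cells (log2FC 0.02 ± 0.035, FDR 0.725). DDX6, the RNA helicase that couples CCR4-NOT to decapping, had 194.1 and 200.03 CPM in WT cells and 197.1 and 193.4 CPM in Helz-null cells (log2FC -0.01, 95% interval -0.08 to 0.05, FDR 0.763). For both genes the WT and Helz-null ranges overlapped. PATL1, which joins the LSM ring to DDX6 and DCP2, had 90.3 and 89.8 CPM in WT cells and 88.7 and 87.6 CPM in Helz-null cells, and its interval of -0.11 to 0.04 included 0 (FDR 0.505). LSM14A, a DDX6-binding P-body protein and the most abundant decapping factor at 47.5 FPKM, had 182 and 175 CPM in WT cells and 179 and 179.9 CPM in Helz-null cells (log2FC 0.01 ± 0.032, FDR 0.853).

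EDC4, the large scaffold that holds DCP1 and DCP2 together, came closest to the threshold among the genes that did not pass it. Its CPM were 142 and 138 in WT cells and 153 and 149.5 in Helz-null cells, ranges that did not overlap, and the log2FC of 0.11 ± 0.033 had an FDR of 0.0074. EDC4 passed without WT replicate 1 (log2FC 0.13, FDR 0.00246), with library-size scaling (FDR 0.000448) and with a replicate block (FDR 0.00381), and 21.3% of its exonic bases are shared with an annotated lncRNA. The remaining decapping members, namely DCP1B, the scavenger decapping enzyme DCPS, LSM14B and EIF4ENIF1, which carries eIF4E into P-bodies, had log2FC values from -0.07 to 0.16 with FDR values from 0.0788 to 0.394. DCP1A made up 76.2% ± 0.088 (SD, n = 2) of the summed DCP1A and DCP1B FPKM in WT cells and 70.1% ± 1.63 in Helz-null cells.

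In the LSM ring, 1 of 7 subunits fell (14.3%, beside 15.5% of all tested genes) and the other 6 did not pass. LSM3, a subunit that the cytoplasmic LSM1-7 ring shares with the nuclear LSM2-8 ring of U6 snRNA, had 121 and 125 CPM in WT cells and 95.03 and 98.35 CPM in Helz-null cells. The ranges did not overlap, and the log2FC was -0.34 ± 0.035 with an FDR of 1.82e-10, in a chromosome stretch where most neighbours were lower too. LSM3 was the most abundant subunit by FPKM in both cell types, at 177 in WT cells and 139 in Helz-null cells, and its distance from LSM7 (128 and 120.3 FPKM) narrowed. LSM1, the subunit that sets the cytoplasmic ring apart, had 39.9 and 42.0 CPM in WT cells and 42.6 and 44.6 CPM in Helz-null cells, an order without overlap that did not pass (log2FC 0.10 ± 0.051, FDR 0.125). LSM6 had 35.3 and 35.8 CPM in WT cells and 31.0 and 32.4 CPM in Helz-null cells, with a log2FC of -0.16 ± 0.055 and an FDR of 0.0153. LSM4 (log2FC 0.07, FDR 0.0498) passed only with library-size scaling, without WT replicate 2 (log2FC 0.11, FDR 0.00408) or at the looser threshold, and LSM2, LSM5 and LSM7 lay between -0.09 and -0.01. LSM3, LSM1 and LSM6 have 4, 2 and 1 annotated pseudogenes, whose reads the counting may have divided. LSM1 also shares 37.9% of its exonic bases with other annotated genes. One of them is BAG4 on the other strand, which was down-regulated (log2FC -0.20).

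Of the exonucleases that work from the 5′ end, the cytoplasmic one fell and the nuclear one did not pass. XRN1, which degrades decapped mRNA in the cytoplasm, had 41.0 and 43.9 CPM in WT cells and 33.7 and 32.3 CPM in Helz-null cells (log2FC -0.36 ± 0.053, FDR 4.52e-07). Both Helz-null values were below both WT values, and the Helz-null mean was 77.6% of the WT mean. XRN2, which acts on nuclear RNA and in transcription termination, had 151 and 156 CPM in WT cells and 152 and 155 CPM in Helz-null cells, with a log2FC of 0.01 and a 95% interval of -0.06 to 0.07. The ratio of XRN1 to XRN2 FPKM was 0.0958 and 0.0994 in WT cells and 0.0779 and 0.0734 in Helz-null cells, so that XRN1, already the scarcer mRNA, was scarcer still. The 40 tested neighbours of XRN1 had a median log2FC of -0.04, and 39 of them had a higher log2FC than XRN1.

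Of the 5 genes for poly(A) shortening and binding, 1 rose and 1 fell (40% called, beside 29.4% of all tested genes). In poly(A) shortening, the nuclease subunit of PAN2-PAN3 rose while the adaptor subunit did not pass. PAN2, the catalytic subunit, had 29.001 and 31.27 CPM in WT cells and 38.96 and 36.42 CPM in Helz-null cells (log2FC 0.32 ± 0.057, FDR 1.09e-05), with no overlap and a mean of 125% of WT. PAN3, which brings PAN2 to poly(A)-binding protein and to GW182 proteins, had 48.2 and 45.5 CPM in WT cells and 44.7 and 45.8 CPM in Helz-null cells, ranges that overlapped (log2FC -0.05, 95% interval -0.15 to 0.05, FDR 0.422). The ratio of PAN2 to PAN3 FPKM was 0.609 and 0.696 in WT cells and 0.882 and 0.805 in Helz-null cells. Of the 40 neighbours of PAN2 on chromosome 12, 39 had a lower log2FC, and their median was -0.003. PAN2 shares 19.5% of its exonic bases with the antisense RNA CNPY2-AS1, which was not tested.

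PABPC1 (1126 and 1178 CPM in WT cells, 1139 and 1139.9 CPM in Helz-null cells) had a log2FC of -0.02 with a 95% interval of -0.07 to 0.04, and its Helz-null values fell inside the WT range. It has 13 annotated pseudogenes, more than any other member, and its count is uncertain to that extent. PABPC4, an inducible relative, had 258 and 255 CPM in WT cells and 236 and 238 CPM in Helz-null cells, and its mean of 92.5% of WT passed the test (log2FC -0.11 ± 0.029, FDR 0.00186). The call of PABPC4 was lost without Helz-null replicate 1 (log2FC -0.11, FDR 0.0403), without Helz-null replicate 2 (log2FC -0.12, FDR 0.0215) and with library-size scaling (FDR 0.0253). PARN, a deadenylase of mainly nuclear and non-coding targets, had a log2FC of 0.02 and overlapping groups.

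The GW182 proteins, which connect Argonaute to PAN2-PAN3 and CCR4-NOT, gave no call, where 29.4% of all tested genes were called. Of these proteins, 1 of 3 was below an unadjusted p of 0.05 and 0 were called by DESeq2. TNRC6A, the most abundant of them, had 104 and 107 CPM in WT cells and 101 and 99.3 CPM in Helz-null cells (log2FC -0.07 ± 0.035, FDR 0.0868), without overlap. TNRC6B and TNRC6C overlapped between the groups, with 95% intervals of -0.10 to 0.09 and -0.14 to 0.09. TNRC6A made up 67.4% ± 0.48 (SD, n = 2) of the summed GW182 FPKM in WT cells and 66.4% ± 0.59 in Helz-null cells.

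Among proteins that dock on CCR4-NOT, TOB2 fell, CNOT4 rose and 3 did not pass. The calls made up 40% of these 5 genes, beside 29.4% of all tested genes. TOB and BTG proteins are antiproliferative adaptors that recruit the deadenylase, and TOB2 had 79.7 and 80.0 CPM in WT cells and 68.5 and 69.5 CPM in Helz-null cells (log2FC -0.21 ± 0.039, FDR 2.53e-05). Its paralog TOB1, the more abundant of the pair by FPKM though not by CPM, had 51.5 and 51.1 CPM in WT cells and 53.0 and 54.4 CPM in Helz-null cells (log2FC 0.07 ± 0.045, FDR 0.238). TOB2 therefore went from 46.2% to 41.5% of their summed FPKM. CNOT4, a ubiquitin ligase that binds CCR4-NOT, had 38.2 and 36.7 CPM in WT cells and 42.3 and 43.8 CPM in Helz-null cells (log2FC 0.20 ± 0.051, FDR 0.00138), in a chromosome stretch where most neighbours were higher too. Neither gene overlapped between the groups, but CNOT4 lost its call without WT replicate 2 (log2FC 0.18, FDR 0.00849), without Helz-null replicate 2 (log2FC 0.17, FDR 0.0416) and in DESeq2 (adjusted p = 0.00879). BTG1 (log2FC 0.15, FDR 0.0122) and BTG2 (log2FC 0.10, FDR 0.167) did not pass, and BTG1 passed without WT replicate 2 (log2FC 0.19, FDR 0.00334), with library-size scaling (FDR 0.002), with a GC correction (FDR 0.00144) and with all libraries thinned to the smallest (FDR 0.00333).

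Several genes of the exosome core were down-regulated. The barrel consists of a ring of 6 proteins, EXOSC4 to EXOSC9, under a cap of 3, EXOSC1 to EXOSC3, and 5 of the 9 fell, 4 of them from the ring, where 15.5% of all tested genes were down-regulated. All 9 fitted log2FC values lay below 0, with a median of -0.16, although EXOSC1 moved to 0.01 with library-size scaling and to 0.002 without WT replicate 1. Promoter sequences of the 5 core genes that fell are printed together with that of DIS3, which rose, since these mRNAs encode parts of 1 particle and did not all move the same way. Each is the 250 bases before the RefSeq gene start (table build GRCh38.p14), placed on GRCh37 by an exact match, 5′ to 3′ on the strand of the gene. They lie at chr9:133568897-133569146 (plus strand), chr16:70285844-70286093 (minus), chr3:45017486-45017735 (plus), chr13:37574673-37574922 (plus), chr4:122722228-122722477 (plus) and chr13:73356039-73356288 (minus). The GENCODE gene spans used for positions elsewhere do not begin at the same bases. All 250 bases of the EXOSC7 and EXOSC8 stretches, 196 of DIS3, 39 of EXOSC2 and 5 of EXOSC9 lie inside the GENCODE span of the gene, and that of EXOSC6 lies wholly before it. Capitals mark every match, on either strand, to 1 of 7 short promoter motifs.
EXOSC2: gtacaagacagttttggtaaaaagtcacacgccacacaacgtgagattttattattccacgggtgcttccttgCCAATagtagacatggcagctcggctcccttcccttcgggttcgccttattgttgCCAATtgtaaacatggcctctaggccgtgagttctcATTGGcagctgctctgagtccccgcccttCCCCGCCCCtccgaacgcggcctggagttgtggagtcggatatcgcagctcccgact
EXOSC6: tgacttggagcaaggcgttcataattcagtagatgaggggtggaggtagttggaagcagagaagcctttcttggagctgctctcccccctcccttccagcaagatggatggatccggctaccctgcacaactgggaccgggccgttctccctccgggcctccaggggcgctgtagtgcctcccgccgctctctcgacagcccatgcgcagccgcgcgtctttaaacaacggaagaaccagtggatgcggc
EXOSC7: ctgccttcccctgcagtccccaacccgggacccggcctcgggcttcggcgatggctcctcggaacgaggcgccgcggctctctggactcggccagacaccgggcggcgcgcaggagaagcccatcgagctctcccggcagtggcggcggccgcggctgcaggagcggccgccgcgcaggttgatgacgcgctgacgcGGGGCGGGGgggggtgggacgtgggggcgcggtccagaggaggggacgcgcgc
EXOSC8: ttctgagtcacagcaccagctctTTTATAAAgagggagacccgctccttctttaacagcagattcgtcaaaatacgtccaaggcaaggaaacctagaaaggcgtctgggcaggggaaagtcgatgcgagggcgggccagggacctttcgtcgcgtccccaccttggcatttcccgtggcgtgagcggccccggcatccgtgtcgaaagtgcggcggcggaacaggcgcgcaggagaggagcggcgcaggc
EXOSC9: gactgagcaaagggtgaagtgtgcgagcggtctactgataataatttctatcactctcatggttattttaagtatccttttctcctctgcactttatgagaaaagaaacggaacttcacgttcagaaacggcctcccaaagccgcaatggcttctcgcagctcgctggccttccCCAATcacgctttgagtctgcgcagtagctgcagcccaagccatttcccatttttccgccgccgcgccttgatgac
DIS3: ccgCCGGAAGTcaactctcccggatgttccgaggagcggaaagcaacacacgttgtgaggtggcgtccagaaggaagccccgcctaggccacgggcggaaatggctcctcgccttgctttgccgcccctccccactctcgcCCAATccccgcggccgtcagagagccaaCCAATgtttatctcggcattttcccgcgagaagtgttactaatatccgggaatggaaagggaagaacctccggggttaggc

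The motifs searched on both strands were CCGGAAGT (ETS family), CGCATGCG (NRF1), CCAAT (NF-Y), GGGGCGGGG (Sp1), CTCGCGAG (BANP), AAGATGGC (YY1) and TATAAA, the letters bound by TBP. CCAAT was found in EXOSC2, EXOSC9 and DIS3, GGGGCGGGG in EXOSC2 and EXOSC7, TATAAA on both strands in an overlapping match in EXOSC8, CCGGAAGT in DIS3, and no match in EXOSC6. Over the 49 members with a promoter entry, CCAAT occurred in 17 (34.7%, beside 33% of 27305 RefSeq promoters of the same length), GGGGCGGGG in 16 (32.7%, beside 15.4%), CGCATGCG in 4 (8.16%, beside 1.86%), CCGGAAGT in 3 (6.12%, beside 3.64%), CTCGCGAG in 2 (4.08%, beside 0.916%), TATAAA in 2 (4.08%, beside 11.1%) and AAGATGGC in 0 (beside 1.37%). GGGGCGGGG was found in down-regulated (LSM3, XRN1, TOB2, EXOSC2, EXOSC7, SMG1) and up-regulated members (CNOT4, SKIV2L, SMG5) as well as in members that were not called. The RefSeq promoters were not limited to genes expressed in these cells, whereas every member was expressed, so the shares come from unlike sets. These matches are descriptions of the letters only. PABPC1, PABPC4, LSM1, LSM6, LSM14A, SMG8, EXOSC1 and EXOSC4 had no entry.

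EXOSC2, a cap protein with RNA-binding domains, had 115 and 109 CPM in WT cells and 92.4 and 91.9 CPM in Helz-null cells (log2FC -0.29 ± 0.036, FDR 1.71e-08). EXOSC6 had 42.5 and 42.9 CPM in WT cells and 34.4 and 31.9 CPM in Helz-null cells (log2FC -0.37 ± 0.053, FDR 3.01e-07). EXOSC7 had 51.8 and 49.2 CPM in WT cells and 37.5 and 37.1 CPM in Helz-null cells (log2FC -0.44 ± 0.049, FDR 1.38e-09). The Helz-null means of these 3 were 82.1%, 77.7% and 73.9% of the WT means, and in each gene every Helz-null library was lower than every WT library. EXOSC9, an autoantigen in scleroderma, had 77.4 and 74.3 CPM in WT cells and 66.0 and 66.1 CPM in Helz-null cells (log2FC -0.20 ± 0.040, FDR 7.84e-05). EXOSC8 had 57.8 and 58.1 CPM in WT cells and 52.3 and 51.4 CPM in Helz-null cells (log2FC -0.16 ± 0.044, FDR 0.00289). These groups did not overlap either, but the call of EXOSC8 was close to the threshold. It was lost without any single library, at log2FC values from -0.17 to -0.15 (FDR 0.00788 without WT replicate 1, 0.00799 without WT replicate 2, 0.0119 without Helz-null replicate 1 and 0.0482 without Helz-null replicate 2), and also with library-size scaling, thinned libraries, a GC correction and DESeq2. EXOSC8 shares 2138 exonic bases with SUPT20H on the other strand, which was up-regulated (log2FC 0.22), and reads of both genes may not have been separated.

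The 4 core genes that did not pass were EXOSC1, EXOSC3, EXOSC4 and EXOSC5, with log2FC values from -0.11 to -0.02 and FDR values from 0.0771 to 0.772. EXOSC5, the most abundant at 52.3 FPKM, had 51.4 and 54.5 CPM in WT cells and 50.6 and 51.5 CPM in Helz-null cells, ranges that overlapped slightly. EXOSC4 was lower in both Helz-null libraries (37.7 and 39.2 CPM) than in both WT libraries (41.5 and 41.6 CPM) without passing, and 56.7% of its exonic bases are shared with other annotated genes. In WT cells the FPKM of the 9 core genes ranged from 25.1 for EXOSC6 to 53.3 for EXOSC5, and in Helz-null cells from 19.5 to 51.4 for the same genes. Their median FPKM was 41.0 and 41.2 in WT cells and 37.1 and 36.4 in Helz-null cells.

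**Figure D3:**
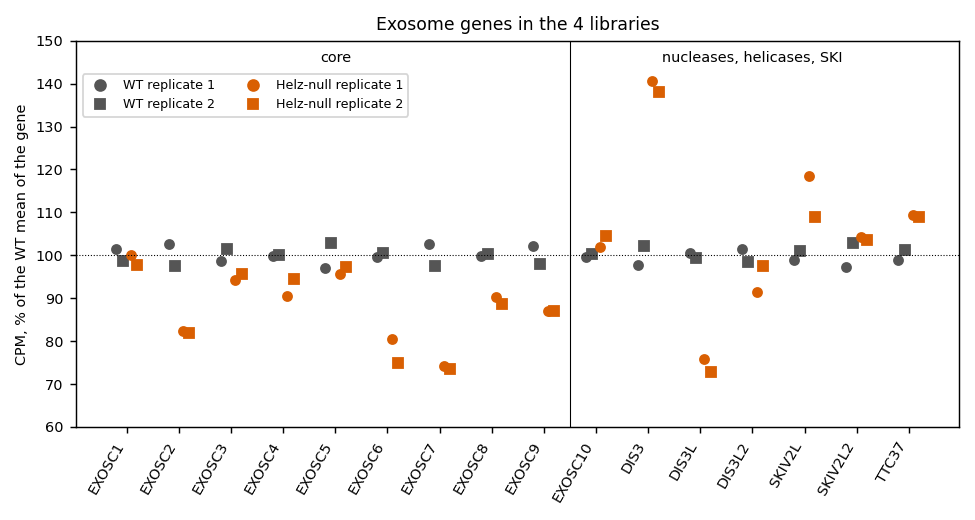
CPM in each library as a percentage of the gene's WT mean (y axis), for 16 genes, 1 symbol per library. Exosome core genes lie left of the vertical line and nucleases, helicases and SKI subunits right of it. Right of the line is also DIS3L2, which works without the barrel. DIS3 reaches 139% of WT on average while EXOSC7 and DIS3L lie at 73.9% and 74.3%, and the WT symbols stay close to 100%.

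Of the 7 members grouped as exosome nucleases and helicases, 3 rose, 1 fell and 3 did not pass (57.1% called, beside 29.4% of all tested genes). The group also holds the scaffold protein TTC37 and DIS3L2, which works without the barrel. DIS3, the nuclease of the nuclear exosome, had 165 and 173 CPM in WT cells and 238 and 233 CPM in Helz-null cells, the largest increase among the members (log2FC 0.48 ± 0.031, FDR 4.97e-16). DIS3L, its cytoplasmic counterpart, had 63.6 and 62.9 CPM in WT cells and 48.0 and 46.1 CPM in Helz-null cells (log2FC -0.43 ± 0.045, FDR 2.12e-10). Neither overlapped between the groups, and both calls, like that of EXOSC7, held under the 17 settings that refitted the counts or changed the threshold. All 3 genes lie in chromosome stretches whose tested genes shifted in the same direction as they did, so that they drop out when such stretches are left out, and with the median of their neighbours subtracted they were left at 0.20 (DIS3), -0.17 (DIS3L) and -0.13 (EXOSC7). DIS3L2, a nuclease of uridylated RNA that works without the barrel, had 19.1 and 18.5 CPM in WT cells and 17.2 and 18.3 CPM in Helz-null cells and did not pass (log2FC -0.08 ± 0.072, FDR 0.393). Of the summed FPKM of the 3 paralogs, DIS3 made up 52.2% ± 1.05 (SD, n = 2) in WT cells and 66.1% ± 0.035 in Helz-null cells, and DIS3L made up 38.9% ± 0.76 and 26.2% ± 0.41. The ratio of DIS3 to DIS3L FPKM was thus 1.31 and 1.38 in WT cells and 2.49 and 2.54 in Helz-null cells. Against the median FPKM of the core, DIS3 stood at 0.527 and 0.549 in WT cells and at 0.839 and 0.838 in Helz-null cells. DIS3 shares 1180 exonic bases (10.9%) with BORA on the other strand, which was also up-regulated (log2FC 0.43).

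EXOSC10, the other nuclease of the nuclear exosome, did not pass, with 124 and 124 CPM in WT cells and 126 and 129.6 CPM in Helz-null cells (log2FC 0.05, 95% interval -0.02 to 0.11), and 39.1% of its exonic bases are shared with antisense lncRNAs. SKIV2L and TTC37, the helicase and the scaffold of the SKI complex that threads RNA into the cytoplasmic exosome, rose by small amounts. SKIV2L had 50.7 and 51.8 CPM in WT cells and 60.7 and 55.9 CPM in Helz-null cells (log2FC 0.18 ± 0.047, FDR 0.00163). TTC37 had 164 and 168 CPM in WT cells and 182 and 181 CPM in Helz-null cells (log2FC 0.13 ± 0.031, FDR 0.000999). In both genes the groups stayed apart, but the calls were close to the threshold. SKIV2L lost its call without WT replicate 1 (log2FC 0.16, FDR 0.00958), without Helz-null replicate 1 (log2FC 0.12, FDR 0.0888), with a GC correction (FDR 0.00756) and in DESeq2 (adjusted p = 0.0105). TTC37 lost it without WT replicate 1 (log2FC 0.11, FDR 0.00686), Helz-null replicate 1 (log2FC 0.12, FDR 0.016) or Helz-null replicate 2 (log2FC 0.13, FDR 0.0156). SKIV2L2, the helicase that serves the nuclear exosome, did not pass (log2FC 0.06 ± 0.034, FDR 0.172).

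In nonsense-mediated decay, SMG5 rose, SMG1 and UPF3B fell and 5 members did not pass. The share called was 37.5% of the 8, beside 29.4% of all tested genes. SMG5, an adaptor that recruits decay enzymes to phosphorylated UPF1, was the most abundant of the 8 at 66.7 FPKM and had 283 and 267 CPM in WT cells and 337 and 329.6 CPM in Helz-null cells (log2FC 0.27 ± 0.030, FDR 8.56e-10). SMG1, the kinase that phosphorylates UPF1, had 184 and 178 CPM in WT cells and 159 and 149 CPM in Helz-null cells (log2FC -0.24 ± 0.033, FDR 2.19e-07). The groups of both were separate, and the ratio of SMG5 to SMG1 FPKM was 5.44 and 5.28 in WT cells and 7.47 and 7.79 in Helz-null cells. SMG1 has 7 annotated pseudogenes, so that its count is uncertain. UPF3B, which links UPF2 to the exon junction complex, had 107 and 104 CPM in WT cells and 96.1 and 94.5 CPM in Helz-null cells (log2FC -0.15 ± 0.036, FDR 0.000499), and its call was lost without Helz-null replicate 2 (log2FC -0.14, FDR 0.0204). Its paralog UPF3A did not pass (log2FC -0.08, FDR 0.3), and UPF3B made up 80.1% of their summed FPKM in WT cells and 79.3% in Helz-null cells.

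The endonuclease SMG6 and the SMG1 regulators SMG8 and SMG9 had higher values in both Helz-null libraries than in both WT libraries, with log2FC values of 0.11, 0.11 and 0.16, but none passed (FDR 0.041, 0.0212 and 0.0193). SMG6 shares 24.7% of its exonic bases with other annotated genes, among them HIC1, which was not tested. SMG8 passed with library-size scaling (FDR 0.00272). SMG9 had the widest replicate gaps of all members, with 36.6 and 33.9 CPM in WT cells and 41.8 and 37.6 CPM in Helz-null cells. It passed without WT replicate 1 (log2FC 0.22, FDR 0.00307), without Helz-null replicate 2 (log2FC 0.24, FDR 0.00342), with library-size scaling (FDR 0.00396) and with a replicate block (FDR 0.00465). UPF2, the bridge between UPF1 and UPF3 proteins, had a log2FC of 0.01 and overlapping groups.

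Some members lie in stretches of chromosome in which most tested genes differed in the same direction. For each member up to 20 tested genes on either side were taken, and a stretch was called shifted where the median log2FC of these neighbours was at least 0.15 away from 0, a limit chosen after the data were seen. In this sense 7 of the 57 members (12.3%) lay in shifted stretches, beside 8.03% of all tested genes. All 7 were called, where 73.3% of the 881 tested genes in such stretches were called. Outside such stretches 13 of 50 members (26.0%) were called, 4 up and 9 down, beside 25.5% of all tested genes there.

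EDC3 on chromosome 15, from 74922899 to 74988633, had 39 of 40 neighbours below 0, with a median of -0.40, which is a larger shift than its own log2FC of -0.34. EXOSC7 on chromosome 3, from 45016733 to 45077558, had 40 of 40 neighbours below 0 and a median of -0.31. DIS3L on chromosome 15 had a neighbour median of -0.26, DCP1A on chromosome 3 of -0.23 and LSM3 on chromosome 3 of -0.20. The 5 shifted members that fell were thus found on 2 chromosomes. DIS3 on chromosome 13, from 73326307 to 73356234, had 34 of 40 neighbours above 0 and a median of 0.28, and 39 of the 40 had a lower log2FC than DIS3. CNOT4 on chromosome 7 had a neighbour median of 0.16. After the neighbour median was subtracted, LSM3 was left at -0.14, DCP1A at -0.05, CNOT4 at 0.04 and EDC3, with its sign turned, at 0.057, beside the values already given for DIS3, DIS3L and EXOSC7. The part of the surrounding stretches in these changes was not tested.

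Other called members stood apart from neighbours whose median was near 0. Neighbour medians were 0.005 for EXOSC2, -0.04 for EXOSC6, 0.03 for EXOSC8, 0.02 for SMG1, 0.06 for SMG5 and -0.003 for PAN2. Of the 40 neighbours of EXOSC6, 30 were below 0. EXOSC9, on chromosome 4, was intermediate, with 32 of 40 neighbours below 0 and a median of -0.11, and LSM6, further along the same chromosome, had a neighbour median of -0.145 that stayed within the limit. With neighbours subtracted, all 9 exosome core genes remained below 0, from -0.33 for EXOSC6 to -0.02 for EXOSC3.

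**Figure D4:**
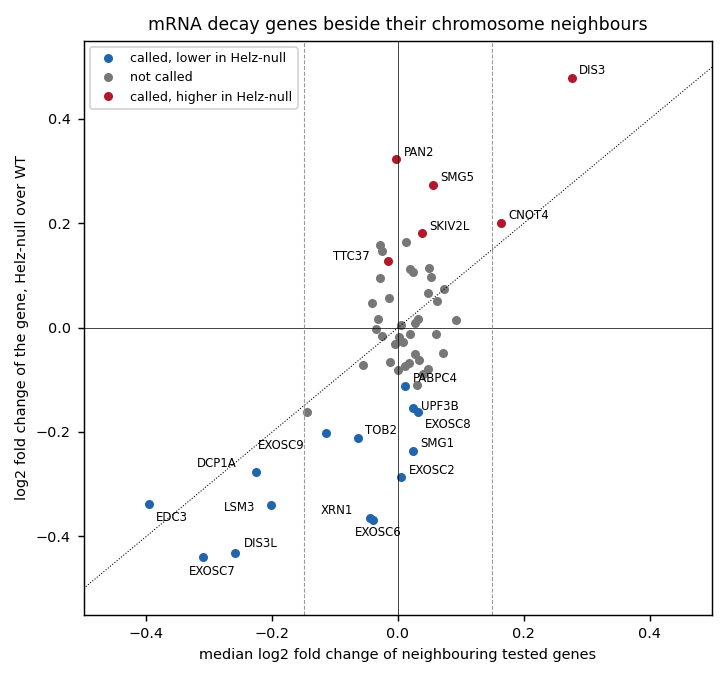
Log2FC of each of the 57 decay genes (y axis) against the median log2FC of its neighbouring tested genes (x axis), with the diagonal dotted, the limits of 0.15 dashed and called members named. EDC3, DCP1A, LSM3, DIS3L and EXOSC7 lie left of -0.15 and DIS3 and CNOT4 right of 0.15, while XRN1, PAN2, EXOSC2, EXOSC6, SMG1 and SMG5 lie near the vertical axis.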

How the data were processed

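HEK293T cells were sequenced as 4 RNA-Seq libraries, 2 of WT and 2 of Helz-null genotype. The authors deposited raw read counts per gene, made by removal of ribosomal reads with Bowtie2, mapping to hg19 with TopHat2 and counting with QuasR. Versions of these tools, the annotation, whether strand was used and how mates were counted are not given in the sources used here, so overlapping genes are uncertain (15 members share at least 10% of their exonic bases, 12 have pseudogenes). A deposited table of the authors' edgeR comparison (log2 fold changes, log2 CPM, p-values, FDR) served only for its list of 10978 genes.

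The count model was edgeR 4.0.16 (R 4.3.3, limma 3.58.1; TMM, estimateDisp, glmQLFit, glmQLFTest, genotype as the only term), adjusted by Benjamini-Hochberg over all 10978 genes and called at an FDR below 0.005. The standard error (SE) of a log2FC was derived from the F statistic. FPKM was computed from the deposited gene width. Totals of 41745401 to 70464140 counts put the floor of 3 counts at 0.043 to 0.072 CPM, and intervals and floors cover counting error only unless they come from the fit. The labels call the libraries replicates, and the paper calls them biological. Named with values per library were HELZ, DDX6, EDC4, PATL1, PAN3, PABPC1, DCP2, the 20 called members and the most abundant member of each sub-pathway. Values of LSM1, LSM6, EXOSC4, DIS3L2 and SMG9 were added after they were seen. The members and lists were chosen with earlier results of these data known.

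Positions came from GENCODE on GRCh37 (10896 of 10978 genes matched) and promoters from RefSeq (49 of 57 members). The scripts were tested on simulated data. Alternatives were other scalings, filters, thresholds and tests (DESeq2 1.42.0 among them), a GC correction, thinning, division of counts by 2, a replicate block, single libraries left out and, added after the data were seen, shifted stretches left out. Python 3.11.15, numpy 2.4.6, pandas 2.3.3 and matplotlib 3.10.9 were used for summaries and figures. Columns of unknown samples numbered 0.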

Additional observations from a re-analysis of the deposited data

How the results depend on the processing

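Of 20 called members, DIS3, DIS3L and EXOSC7 kept their call under the 17 other fits and thresholds. Among these settings, 11 members lost it only against a fold change of at least 1.2, and EXOSC8, SKIV2L, CNOT4, PABPC4, TTC37 and UPF3B lost it under 2 to 9 settings. Against a fold change of at least 1.2, 1 member was up-regulated and 2 were down-regulated (217 and 318 of all genes). At an FDR below 0.05 the counts were 12 and 15 (2371 and 2506 of all genes). With library-size scaling the members gave 11 up and 12 down and a median log2FC of 0.014, and all genes gave 2109 up and 1318 down, beside 1524 and 1701 with TMM, whose factors of 0.987 to 1.01 this scaling leaves out. Without genes in shifted stretches, chosen after the data were seen, 4 members were up and 9 down, since DIS3, DIS3L, EXOSC7, EDC3, DCP1A, LSM3 and CNOT4 drop out (1374 and 1205 of all genes). With neighbours subtracted, EDC3 reversed to 0.057, and the cause was not tested. With 1 library left out, the median log2FC ranged from -0.035 to -0.016, up-regulated members from 4 to 7 and down-regulated members from 11 to 13 (1027 to 1544 and 1180 to 1659 of all genes). DESeq2 gave 4 up and 13 down (1102 and 1288 of all genes). The replicate block gave 8 up and 14 down (1677 and 1841 of all genes). The deviations of same-numbered libraries correlated at 0.034 over all tested genes. Genes with few counts were included, so this value cannot decide whether the numbers pair the libraries, and the labels do not say. With 2 libraries per group no sample could be judged as deviating, and the precision ran from a 95% interval of -0.07 to 0.04 for PABPC1, the most abundant member, to one of 0.01 to 0.32 for DCP1B.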

Other observations

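Genes of the same pathways that were not among the 57 members were counted from lists made by symbol. Of the 10 CCR4-NOT subunits, 1 was down-regulated by the quasi-likelihood test of edgeR at an FDR below 0.005 and 9 did not pass, and their median log2FC was 0.05. Among 11 tested genes of the exon junction complex and of translation termination, which mark and read premature stop codons, 1 rose and 10 did not pass, with a median of 0.03. The 4 Argonaute genes, which carry miRNAs, had 2 down-regulated members and a median of -0.20, and the 10 cofactors of the exosome, such as adaptors that deliver nuclear RNA, had 3 down-regulated members and a median of -0.13. Of 9 tested proteins that bind 3′ UTR elements, 2 fell (median -0.03), and of 8 further deadenylases and cap hydrolases, 2 fell (median -0.06). Over all 52 tested genes of these lists 1 was up-regulated and 10 were down-regulated (21.2%), beside 29.4% of all tested genes and 35.1% of the 57 members. Differences between the lists were not tested.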
